A study of Homo sapiens with 15 samples.

Results

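The genes described here are 10 core genes of the pluripotent state, POU5F1, NANOG, TDGF1, DPPA4, L1TD1, ZFP42, GDF3, NODAL, FOXD3 and TERT, taken by their symbols from the 19684 genes of the expression tables. All 10 were found, and all 10 passed the filter on low values (FPKM of at least 1 in at least 3 libraries), 9 of them through the hiPSC libraries alone and POU5F1 also in ROs. Poly(A) RNA-seq libraries, 3 per group, were made from 5 groups of the BC1-GFP line of human induced pluripotent stem cells (hiPSCs), which has a wild-type label and a GFP reporter. They were the undifferentiated cells, the neural retina (NR) layers dissected out of retinal organoids (ROs) 70 days (D70-ROs) or 150 days (D150-ROs) after induction, and Müller glial cells grown in culture out of D150-RO NR layers (iMGCs) and collected on day 5 of passage 1 (P1) or of passage 5 (P5). No group carried a further allele or agent, every group came from this 1 line, and several ROs were pooled for each RO library. The study's methods give 3 independent experiments for each group and the deposited design text gives 2 for hiPSCs and ROs, so the p-values below measure the spread between these libraries, part of which may be technical.

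POU5F1 (OCT4) and NANOG are transcription factors at the centre of the network that keeps pluripotent cells undifferentiated, and they bind many of the other genes named here. TDGF1 (CRIPTO) is the co-receptor through which NODAL, and with it GDF3, signals to activin receptors, a pathway that supports the primed human pluripotent state. DPPA4 is a chromatin factor of early embryos, L1TD1 an RNA-binding protein, ZFP42 (REX1) a zinc finger factor, FOXD3 a forkhead factor, and TERT the catalytic subunit of telomerase, and their silencing is a usual sign that cells have left pluripotency.

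Depth ranged from 11349600 to 20398755 counts per library. Replicates of a group differed beyond sampling noise in all groups, with a chi-square per degree of freedom of 2.33 to 33.7, and no library was counted as a duplicate. The neural retina markers RAX, PAX6, SIX3, SIX6, CRX and RCVRN were all called higher than in hiPSCs at both RO ages, where 22.5% (day 70) and 29.8% (day 150) of all genes were. In iMGCs, RAX and CRX had 0 counts at both passages and RCVRN had 0 in P1 and 1 in P5. PAX6, with 3431 counts in P1 and 4747 in P5, was called higher than in hiPSCs at both passages, and SIX3 had 804 and 576 counts and SIX6 2 and 121. Of 6 Müller glia markers, VIM was called higher than in hiPSCs at both passages, SOX9 was not called, and GLUL, SLC1A3 (67 counts in P1 and 237 in P5) and APOE (2222 and 2037) were called lower. Of all genes, 29.7% were called lower in P1 and 29.3% in P5, and 3307 of 12666 and 3420 of 12699 higher. The hiPSC libraries themselves held 19363 counts of GLUL and 38801 of APOE. Against D150-ROs, VIM (log2 fold change 1.67) and APOE (2.12) were called higher in P1 iMGCs and the other 4 lower. Of all genes, 2799 of 13915 were higher there and 24.7% lower. RLBP1 had 0 counts in P1 and 1 in P5. The deposited design text names 2 sequencing companies and no source assigns libraries to them, so a sequencing batch cannot be told apart from the group. It also names a correction for batches in joint analyses, and whether the deposited values carry it is not given in the sources used here.

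The members lay on 7 chromosomes. Of the 8 whose promoter was in the RefSeq set (GRCh38.p14, 250 bases before to 50 after the start, without POU5F1 and TDGF1), the GC content of the 250 upstream bases ran from 38.4% in GDF3 to 78.8% in TERT, and the number of CpGs from 0 to 28. The composite OCT4-SOX2 motif (CATTGT, any base, then ATGCAAA), searched on both strands, was in 3 of 35116 promoters searched (0.00854%), and NANOG was 1 of the 3. The window is shown because OCT4, the product of POU5F1, is known to bind this motif there. It lies before the RefSeq start of NANOG, within the GENCODE 29 span of the gene but in no annotated exon, at chr12:7789257-7789320 on the plus strand, with the motif (read from the minus strand) in capitals beginning 120 bases before the start:
NANOG promoter: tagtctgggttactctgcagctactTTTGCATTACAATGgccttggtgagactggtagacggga
The octamer ATGCAAAT, which shares its first 7 letters with the composite motif, was in 0 of the 8 promoters against 1.77% of all, the E-box CACGTG in 2 of 8 (FOXD3 and TERT) against 7.26%, and the box CCAAT in 4 of 8 (L1TD1, DPPA4, ZFP42 and GDF3) against 34.6%. A match of letters is a description and not a bound site.

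Near-identical copies bear on how firmly a low count can be given to a gene. Of the 50-base windows in the GENCODE 29 transcripts of a member, 37.4% for POU5F1 were also in another gene (first POU5F1B), 34.3% for TDGF1 (first the pseudogene TDGF1P3 on chromosome X) and 16.8% for NANOG (first NANOGP8). NODAL shared 39.7% with AC022532.1, an annotated gene on the opposite strand (chr10:70434829-70436556, plus strand) inside the NODAL locus, and whether the libraries kept the strand is not given in the sources used here. The share was 2.83% for DPPA4, 5.76% for L1TD1, 2.07% for ZFP42, 5.01% for FOXD3 and 0 for GDF3 and TERT. The coding sequences of NANOG and of NANOGP8 (chr15:35084193-35085110, minus strand) were both 918 bases long and matched at 99.5% of bases, with 5 mismatches. Their first 80 coding bases, in which they differ only at the base in capitals, show how little separates reads of these genes:
NANOG: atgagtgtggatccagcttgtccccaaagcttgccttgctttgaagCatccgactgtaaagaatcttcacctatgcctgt
NANOGP8: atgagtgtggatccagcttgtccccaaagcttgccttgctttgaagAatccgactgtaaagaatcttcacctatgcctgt
POU5F1 and POU5F1B matched at 97.9% of 1080 aligned coding bases. NANOGP8 had 805 counts over the hiPSC libraries, 1 in D70-ROs, 2 in D150-ROs and 0 in iMGCs, while POU5F1B had 13, 2, 11, 32 and 25 in the 5 groups, from hiPSCs over the younger and older ROs to P1 and then P5 iMGCs. The RO and iMGC counts of POU5F1 and NANOG below are therefore uncertain between gene and copy. So are the counts of NANOGP8 and POU5F1B themselves in every group.

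In hiPSCs the members spanned a 287-fold range of FPKM (fragments per kilobase of transcript, scaled to the library's depth, a level per length that can be compared between genes). POU5F1 led with 2027 ± 115 (SD, n = 3), followed by TDGF1 with 254 ± 31.0 and DPPA4 with 220.0 ± 8.44. ZFP42 had 67.2 ± 3.08, L1TD1 56.0 ± 15.7 and NANOG 41.9 ± 3.63. The lowest were NODAL with 14.3 ± 2.66, GDF3 with 10.0 ± 1.19, FOXD3 with 9.92 ± 0.848 and TERT with 7.06 ± 0.534. Neighbours in this order whose libraries overlapped were TDGF1 and DPPA4, ZFP42 and L1TD1, L1TD1 and NANOG, and GDF3 and FOXD3. Together the 10 genes took 0.374% to 0.416% of all counts of a hiPSC library, and POU5F1 alone gave 53.0% to 55.2% of that.

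**Figure D1:**
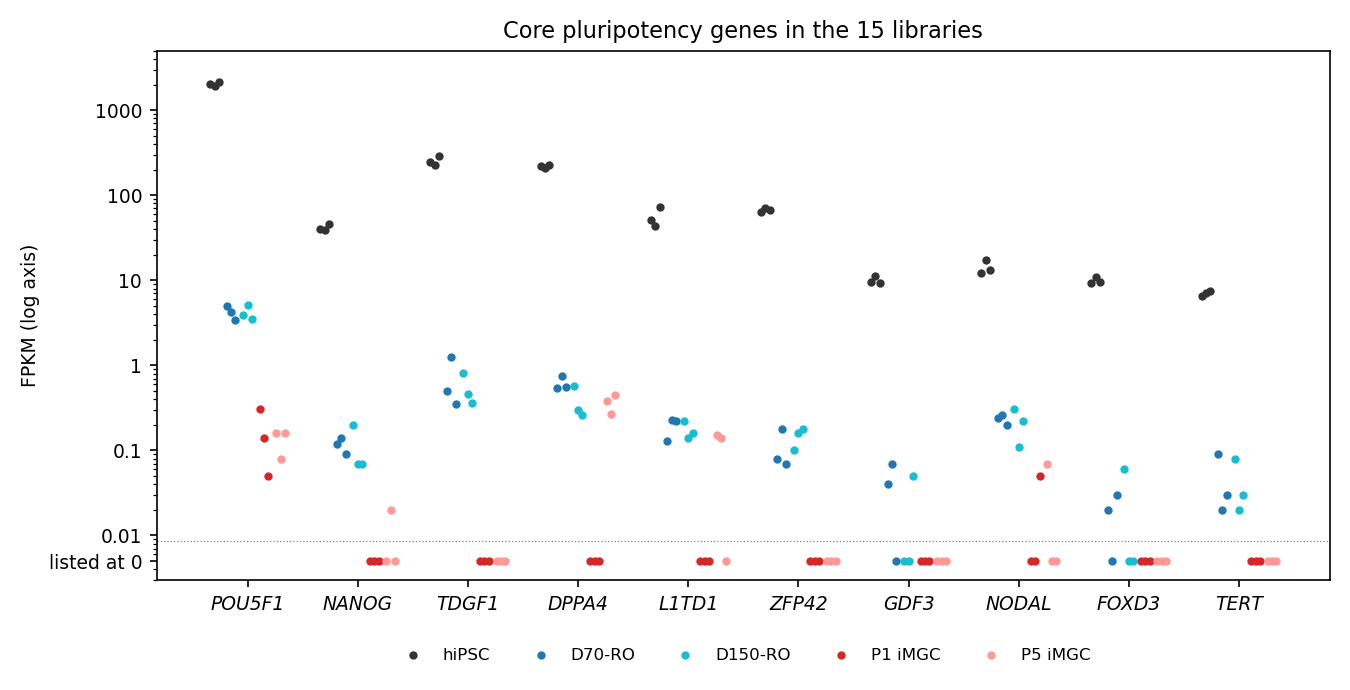
FPKM (log axis) of each of the 10 genes in each of the 15 libraries, 1 point per library, coloured by group, with values listed at 0 drawn under the dotted line. Every hiPSC point is above 6 FPKM, RO points of 9 genes reach at most 1.26 FPKM and those of POU5F1 5.16, and most iMGC points are listed at 0.

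All 10 members were lower in ROs of either age than in hiPSCs. At adjusted p under 0.05 and at least 2-fold (edgeR), 10 of 10 were called lower in D70-ROs, where 21.1% of all genes tested were, and 10 of 10 in D150-ROs, where 29% were. All members but POU5F1 passed the filter only through the hiPSC libraries, and the set was chosen with earlier results of these data known. A call of lower was thus close to fixed in advance, and these counts and p-values describe the set only. The median log2 fold change of the 10 was −8.76 in D70-ROs and −9.10 in D150-ROs, beside medians of 0.02 and −0.02 over all genes tested. Adjusted p-values (edgeR) ran from 1.44e-10 to 2.06e-08 at day 70 and from 1.42e-12 to 6.93e-10 at day 150. In bulk RNA, fewer cells of a type and less RNA per cell cannot be told apart.

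POU5F1 (ENSG00000204531, chr6:31164337-31180731, minus strand, GRCh38) had 2006, 1924 and 2150 FPKM in the hiPSC libraries. It had 5.00, 4.21 and 3.40 at day 70 and 3.88, 5.16 and 3.47 at day 150. The RO groups overlapped each other and lay far below every hiPSC library, with log2 fold changes of −9.09 ± 0.19 (SE) in D70-ROs and −9.29 ± 0.13 in D150-ROs. In counts these levels were 94, 56 and 59 for D70-ROs and 73, 79 and 58 for D150-ROs, the largest RO counts of any member.

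NANOG (ENSG00000111704, chr12:7787794-7799141, plus strand) had 40.4, 39.3 and 46.1 FPKM in the hiPSC libraries. It had 0.12, 0.14 and 0.09 at day 70 and 0.20, 0.07 and 0.07 at day 150. These RO values stood for 2, 4 and 3 counts in D70-ROs and 6 in each D150-RO library. The same 6 counts thus gave 0.20 FPKM in D150-RO replicate 1 and 0.07 in the other two, and the reason was not tested. The log2 fold changes were −9.29 ± 0.25 in D70-ROs and −8.52 ± 0.16 in D150-ROs.

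DPPA4 (ENSG00000121570, chr3:109326141-109337572, minus strand), the chromatin factor, had 219, 212 and 229 FPKM in hiPSCs. It had 0.54, 0.75 and 0.55 at day 70 (30, 24 and 28 counts) and 0.57, 0.30 and 0.26 at day 150 (25, 14 and 12 counts). D150-RO replicate 1 alone reached the D70-RO range. The log2 fold changes against hiPSCs were −8.64 ± 0.17 and −9.53 ± 0.18.

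L1TD1 (ENSG00000240563, chr1:62194831-62212328, plus strand), the RNA-binding protein, had 51.5, 43.1 and 73.5 FPKM in hiPSCs, the widest spread of the set there relative to its mean. In ROs it had 0.13, 0.23 and 0.22 at day 70 and 0.22, 0.14 and 0.16 at day 150, from 9 to 15 counts per library. Its log2 fold changes were −8.36 ± 0.29 and −8.69 ± 0.26.

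ZFP42 (ENSG00000179059, chr4:187995771-188005050, plus strand) had 64.0, 70.2 and 67.3 FPKM in the hiPSC libraries. In ROs it had 0.08, 0.18 and 0.07 at day 70 and 0.10, 0.16 and 0.18 at day 150, from 3 to 7 counts per library. The 2 RO ages overlapped, and its log2 fold change in D70-ROs, −9.53 ± 0.22, was the largest fall of the set at that age. At day 150 it was −9.23 ± 0.16.

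FOXD3 (ENSG00000187140, chr1:63323041-63325126, plus strand) had 9.34, 10.9 and 9.52 FPKM in hiPSCs and only 2 counts over the D70-RO libraries and 2 over the D150-RO libraries. Its level in CPM (counts scaled to the library total) was 0.197% of that of hiPSCs in D70-ROs, with a 95% counting interval of 0.0239% to 0.714%, and 0.201% (0.0243% to 0.727%) in D150-ROs.

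TDGF1 (ENSG00000241186, chr3:46574534-46582463, plus strand), the co-receptor, had 245, 228 and 288 FPKM in the hiPSC libraries, then 0.50, 1.26 and 0.35 at day 70 and 0.81, 0.46 and 0.36 at day 150, with log2 fold changes of −8.88 ± 0.26 and −9.23 ± 0.17. D70-RO replicate 2, the shallowest library, held its highest RO level, from 27 counts. GDF3 (ENSG00000184344, chr12:7689782-7695776, minus strand), the ligand whose gene lies 92.0 kb from NANOG, had 9.51, 11.4 and 9.18 FPKM in hiPSCs and 2 counts over the D70-ROs and 1 over the D150-ROs. That was 0.329% of the hiPSC CPM (0.0397% to 1.19%) and 0.167% (0.00423% to 0.936%).

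NODAL (ENSG00000156574, chr10:70432315-70447951, minus strand), the ligand of the pathway, had 12.2, 17.2 and 13.4 FPKM in the hiPSC libraries, then 0.24, 0.26 and 0.20 at day 70 and 0.31, 0.11 and 0.22 at day 150, from 3 to 8 counts per RO library. Every hiPSC library lay above every RO library, yet its log2 fold changes of −6.27 ± 0.29 and −6.28 ± 0.28 were the smallest of the set. These counts include any from AC022532.1 on the opposite strand, if strand was not kept.

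TERT (ENSG00000164362, chr5:1253147-1295069, minus strand), the telomerase subunit, had 6.49, 7.13 and 7.55 FPKM in the hiPSC libraries, then 0.09, 0.02 and 0.03 at day 70 and 0.08, 0.02 and 0.03 at day 150. In each RO group replicate 1 held most of its counts, 6 of 9 at day 70 and 4 of 7 at day 150. Its log2 fold changes were −7.37 ± 0.29 and −7.89 ± 0.25.

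As a percent of the hiPSC level, the values read in RO libraries were much alike for genes of very different abundance. Whether the counts at this level came from RNA of the RO cells was not tested. By CPM, POU5F1 was at 0.200% in D70-ROs (95% counting interval 0.174% to 0.229%) and 0.205% (0.178% to 0.234%) in D150-ROs. TDGF1 was at 0.228% (0.177% to 0.290%) and 0.211% (0.162% to 0.272%). DPPA4 was at 0.272% (0.216% to 0.338%) and 0.172% (0.128% to 0.227%). These are the 3 most abundant members, and their intervals overlapped at each age.

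L1TD1 was at 0.328% (0.229% to 0.457%) at day 70 and 0.306% (0.209% to 0.432%) at day 150. ZFP42 was at 0.145% (0.0750% to 0.254%) and 0.209% (0.122% to 0.336%). NANOG was at 0.169% (0.0771% to 0.320%) and 0.344% (0.203% to 0.543%), and by FPKM at 0.278% and 0.270%. With GDF3 and FOXD3, 8 members thus lay between 0.145% and 0.329% at day 70 and between 0.167% and 0.344% at day 150. The other two were higher. TERT was at 0.647% (0.296% to 1.23%) and 0.513% (0.206% to 1.06%). NODAL was at 1.41% (0.787% to 2.33%) and 1.63% (0.945% to 2.62%). The interval of NODAL lay above that of POU5F1 at both ages. The day 70 value of TERT rests on 9 counts, 6 of them in replicate 1. The intervals and limits cover counting error only. They pool the libraries of a group and leave out the spread between them. Reads without molecular identifiers are also not independent molecules.

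**Figure D2:**
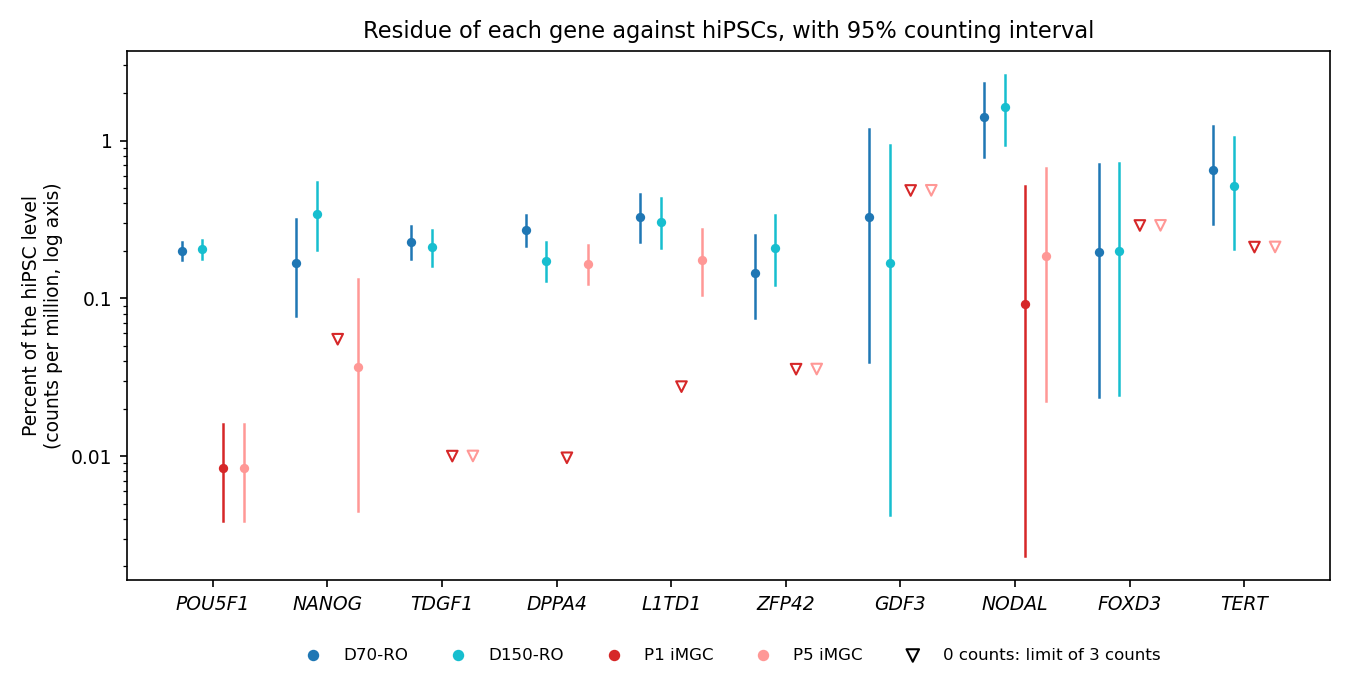
Level of each gene in D70-ROs, D150-ROs, P1 and P5 iMGCs as a percent of its hiPSC level (CPM over the 3 libraries of a group, log axis), with 95% counting intervals as bars and open triangles for the limit of 3 counts where a group had 0. The RO values of 8 genes lie between 0.145% and 0.344%, NODAL and TERT lie higher, and POU5F1 is at 0.00845% in P1 and 0.00847% in P5 iMGCs.

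Across the whole table, the lowest RO values stopped at about the same percent. Among the 1100 genes with at least 10000 counts over the hiPSC libraries, 0 were under 0.1% of the hiPSC CPM in D70-ROs and 0 in D150-ROs, and POU5F1, at 0.200%, was the lowest of all 1100 in D70-ROs. In D150-ROs the lowest was VRTN, another pluripotency gene, at 0.136%. In iMGCs the same genes went lower: 20 were under 0.1% in P1, 9 of them at 0 counts, and 16 in P5, 7 of them at 0.

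In hiPSCs, some retinal markers lay at a similar percent of their RO level and others higher. RAX, an eye field factor, had 95 counts over the hiPSC libraries, 0.336% (0.271% to 0.410%) of its D70-RO level and 0.743% of that at day 150. RCVRN (recoverin of photoreceptors) had 94, or 0.206% (0.166% to 0.252%) of its D150-RO level but 7.80% of that at day 70, and RLBP1 of Müller glia had 8, or 0.224% (0.0967% to 0.443%) at day 150. CRX was at 1.55% of the day 70 and 0.373% of the day 150 level, SIX6 at 0.753% and 2.63%, SIX3 at 3.99% and 6.496%, and SOX9 and GLUL at 11.6% and 78.4% of the day 150 level. Of 724 genes with at least 10000 counts in D70-ROs and 969 in D150-ROs, 0 were under 0.1% in hiPSCs, and the lowest were TBX2 at 0.179% and RBP3 at 0.195%. The source of the counts at this level in ROs and hiPSCs was not tested, and no source names which libraries shared a sequencing run.

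**Figure D3:**
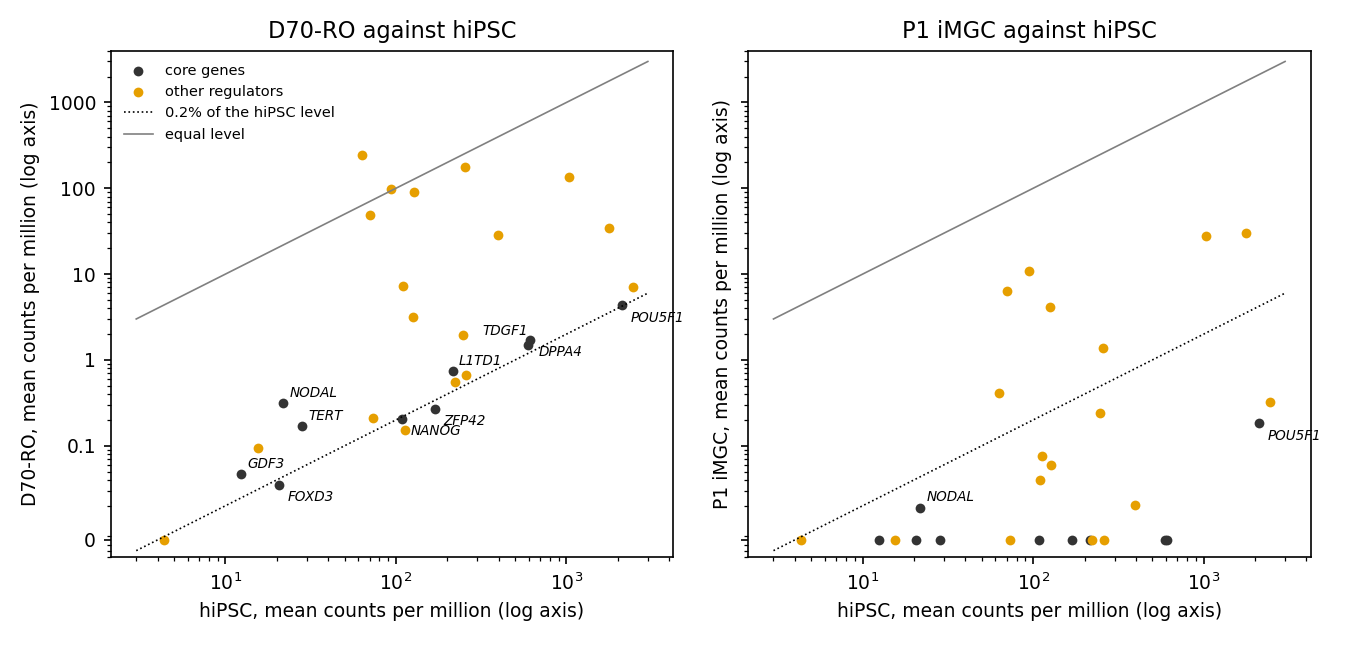
Mean CPM in D70-ROs (left) and P1 iMGCs (right) against mean CPM in hiPSCs, both on log axes with 0 drawn at the bottom, for the 10 core genes (black) and 18 other pluripotency regulators (orange), with a dotted line at 0.2% of the hiPSC level and a grey line at equal level. In D70-ROs the core genes run along the dotted line with NODAL and TERT above it, and in P1 iMGCs 8 of them are at 0 and POU5F1 is far below it.

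In a fit of all 15 libraries, 0 of 10 members were called between D150-ROs and D70-ROs by edgeR, and 0 by DESeq2 or limma, where 33.8% of all genes were called in either direction. By unadjusted p under 0.05, 1 of the 10 passed, where 10580 of the 13915 genes did. It was DPPA4, with a log2 fold change of −0.86 ± 0.27 and an adjusted p of 0.00938 (edgeR), which is under 2-fold. Its CPM ratio of D150-ROs to D70-ROs was 0.633 (95% counting interval 0.437 to 0.909), and it was called when D150-RO replicate 1 was left out. For POU5F1 the ratio was 1.02 (0.841 to 1.24), the narrowest counting interval of the members given here, and for TDGF1 0.927 (0.644 to 1.33). These intervals leave out the spread between libraries, and the ratios carry no TMM factors. In the fit, POU5F1 had a log2 fold change of −0.17 ± 0.18. NANOG had 18 counts against 9, a ratio of 2.04 (0.869 to 5.15), and its groups did not overlap by CPM. By FPKM they overlapped, with means of 0.113 at day 150 and 0.117 at day 70, so the difference was not there on that scale. Of all genes, 76.6% had groups that did not overlap by CPM. Ratios were 0.931 (0.558 to 1.55) for L1TD1, 1.44 (0.649 to 3.31) for ZFP42, 1.15 (0.542 to 2.48) for NODAL and 0.792 (0.251 to 2.39) for TERT, so that changes of 2-fold stayed within the intervals of the last 3.

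In P1 iMGCs 8 of the 10 members had 0 counts in all 3 libraries. POU5F1 had 6, 2 and 1 counts (0.31, 0.14 and 0.05 FPKM) and NODAL had 0, 0 and 1. The 10 genes summed to 10 counts over 3 libraries, against 416 in D150-ROs and 232610 in hiPSCs. Against hiPSCs 10 of 10 were called lower in P1 iMGCs (29.7% of all genes were) and 10 of 10 in P5 iMGCs (29.3%). Here too the members entered the test through their hiPSC levels, so a call of lower was close to fixed in advance. Genes at 0 counts were set to a floor of 3 counts over the group, by CPM without the TMM scaling factors of the fits. DPPA4 was then at least 10246-fold, TDGF1 at least 9997-fold, L1TD1 at least 3626-fold, ZFP42 at least 2811-fold and NANOG at least 1815-fold lower in P1 iMGCs than in hiPSCs. For TERT, FOXD3 and GDF3, whose hiPSC counts were smaller, the bounds were at least 473-fold, 345-fold and 207-fold. POU5F1 was at 0.00845% (0.00386% to 0.0160%) of its hiPSC level. The median log2 fold change of the 10 genes, with those at 0 set to their bounds, was −11.14 in P1 iMGCs and −8.88 in P5 iMGCs, beside −0.08 and −0.07 over all genes. As 8 genes stood at their bounds in P1 and 5 in P5, these medians are partly set by depth. Their difference does not measure a change of the set between passages. Counts of hiPSCs and iMGCs stood in separate tables and were joined as counts before scaling.

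Against D150-ROs, the organoids from which these cells were grown, 8 of 10 members were called lower in P1 iMGCs (24.7% of all genes were), and GDF3 and FOXD3, with 1 and 2 counts in D150-ROs, were not. The D150-RO counts behind these calls, other than those of NODAL and TERT, lie near the percent of the hiPSC level at which abundant hiPSC genes stopped in RO libraries (0 of 1100 under 0.1%) and not in P1 iMGC libraries (20 under 0.1%), and whether they came from the RO cells was not tested. By CPM without TMM factors, TDGF1 was at least 21.1-fold lower (61 counts against 0), DPPA4 at least 17.7-fold (51 against 0) and L1TD1 at least 11.1-fold (32 against 0). NANOG was at least 6.23-fold, ZFP42 at least 5.89-fold and TERT at least 2.42-fold lower (7 against 0). The ratio of P1 iMGCs to D150-ROs was 0.0412 for POU5F1 (0.0186 to 0.0798) and 0.0566 for NODAL (0.00135 to 0.361). TMM factors were 1.30 to 1.31 in D150-ROs and 0.823 to 0.844 in P1 iMGCs. With them all these bounds would be smaller, and that of TERT would fall under 2-fold. In the fit, POU5F1 had a log2 fold change of −3.90 ± 0.36 and NODAL of −3.15 ± 1.00. Adjusted p-values (edgeR) of the 8 ran from 1.22e-08 for POU5F1 to 0.0183 for TERT. The call of TERT was lost without D150-RO replicate 1, with an adjusted p of 0.0577 (edgeR). On log2(FPKM + 1), limma called only 1 of the 10, POU5F1, since the D150-RO levels of the others lie under the pseudocount. RO and iMGC libraries could not be tied to sequencing batches, so a batch cannot be told apart from this difference.

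**Figure D4:**
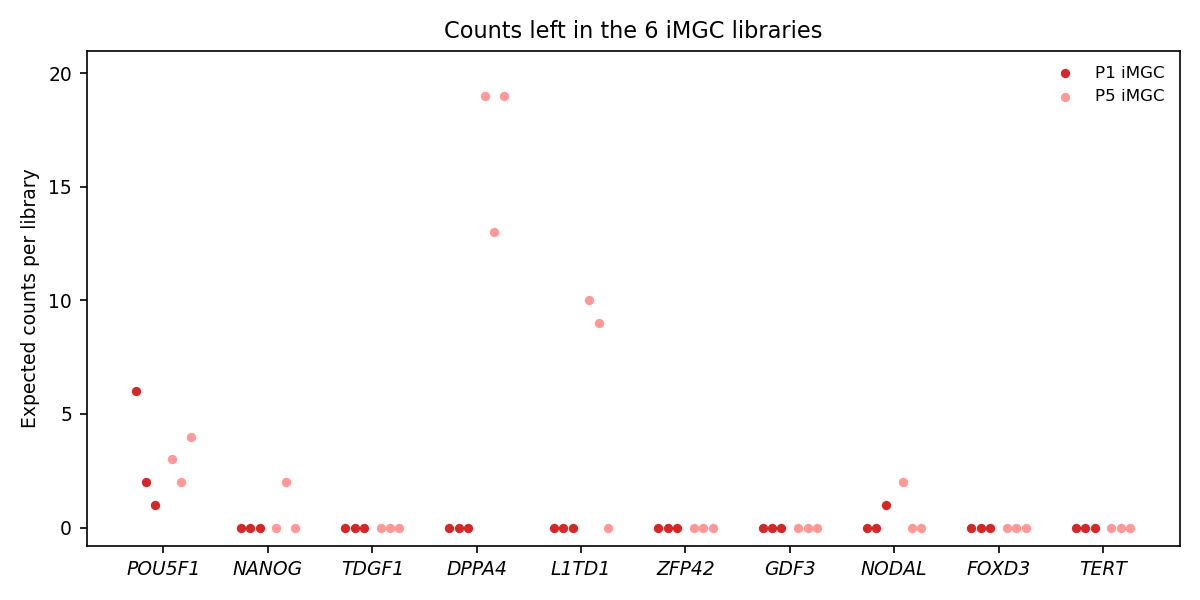
Expected counts of each gene in each of the 3 P1 (red) and 3 P5 (pink) iMGC libraries, on a linear axis. All P1 points outside POU5F1 and NODAL are at 0, while DPPA4 has 13 to 19 counts in every P5 library and L1TD1 has 10, 9 and 0.

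Between the passages 2 members moved. DPPA4 had 0, 0 and 0 counts in P1 iMGCs and 19, 13 and 19 in P5 iMGCs (0.38, 0.27 and 0.45 FPKM). Every P5 library was above every P1 library, while 40.8% of all genes had passage groups that did not overlap, and the level in P5 was at least 17.04-fold higher, with an adjusted p of 2.68e-05 (edgeR). L1TD1 had 0, 0 and 0 counts in P1 and 10, 9 and 0 in P5, at least 6.35-fold higher over the group, with an adjusted p of 0.0441 (edgeR), although P5 replicate 3 was at 0 like the P1 libraries. The call of L1TD1 was lost in 5 of the 6 fits that left out 1 iMGC library and kept only without P5 replicate 3, with an adjusted p of 0.00909 (edgeR). Of all genes, 2.18% were called higher and 3.69% in either direction.

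By CPM without TMM factors, DPPA4 in P5 iMGCs was at 0.166% (0.124% to 0.219%) of its hiPSC level and at 0.965 (0.641 to 1.45) of its D150-RO level. L1TD1 was at 0.175% (0.105% to 0.273%) of hiPSCs and 0.573 (0.307 to 1.04) of D150-ROs. TMM factors were 1.30 to 1.31 in D150-ROs and 0.791 to 0.817 in P5 iMGCs, so both ratios to D150-ROs would be higher with them. In the fits against hiPSCs, DPPA4 had log2 fold changes of −8.88 ± 0.13 in P5 iMGCs and −9.53 ± 0.18 in D150-ROs. Those of L1TD1 were −8.78 ± 0.34 and −8.69 ± 0.26. DPPA2, the gene beside DPPA4 and its partner protein, had 0 counts in P1 and in P5. It had only 261 counts over the hiPSC libraries, so the limit of 3 counts in P5 allowed up to 1.37% of its hiPSC level. A rise of DPPA2 to the percent reached by DPPA4 was thus not detectable at this depth. The other 8 members were not called: POU5F1 had 3, 2 and 4 counts in P5, a ratio to P1 of 1.00 (0.352 to 2.85), NANOG had 0, 2 and 0, NODAL 2, 0 and 0, and TDGF1, ZFP42, GDF3, FOXD3 and TERT had 0 in all 6 iMGC libraries. With 0 counts in a group, the limit of 3 counts allowed up to 0.0357% of the hiPSC level for ZFP42 in P5 iMGCs, and less for TDGF1. It allowed up to 0.484% for GDF3 and 0.291% for FOXD3, above part or all of their RO values, so that a level like that in ROs was not detectable at this depth for these genes. For TERT it allowed up to 0.212%, under both of its RO values.

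Other genes of the network were counted from lists that were chosen for their roles. Of 18 other pluripotency regulators, 13 were called lower and 1 higher in D70-ROs, and 15 lower and 1 higher in D150-ROs, where 21.1% and 22.5% of all genes were lower and higher at day 70 and 29% and 29.8% at day 150, with medians of −5.66 and −6.10. The strongest falls at day 150 were those of VRTN (−9.85 ± 0.22), PRDM14 (−9.47 ± 0.22), ZSCAN10 (−9.33 ± 0.15) and LIN28A (−9.24 ± 0.17), the last an RNA-binding protein that blocks let-7. OTX2, which also specifies retina and photoreceptors, rose by 3.37 ± 0.10 (log2), from 39.4 FPKM in hiPSCs to 132 at day 70 and 447 at day 150. SOX2, the partner of POU5F1 that neural progenitors and glia use as well, had 102, 70.3 and 69.9 FPKM and a log2 fold change of −0.90 ± 0.09 at day 150, under 2-fold. In iMGCs all 18 were called lower than in hiPSCs, SOX2 included with 0.553 FPKM in P1, where 29.7% (P1) and 29.3% (P5) of all genes were. The list was chosen for roles in pluripotent cells with earlier results of these data known, so these counts describe it only. From P1 to P5 2 of the 18 were called lower (DNMT3B and LIN28A) and 1 higher (OTX2), where 1.51% and 2.18% of all genes were.

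Of 20 NODAL pathway genes 18 could be tested at day 150, and 5 were lower and 5 higher, with a median of −0.12, near the 29% and 29.8% of all genes. Those lower were led by FOXH1 (−9.04 ± 0.18), the nuclear partner of SMAD2, and included the feedback inhibitor LEFTY1 (−5.57 ± 0.30) and MIXL1 (−5.57 ± 0.44). Those higher were SMAD2 (2.30 ± 0.09), EOMES (1.91 ± 0.25), the receptor ACVR2A (1.75 ± 0.12), the protease PCSK6 (1.59 ± 0.15) and SKIL (1.21 ± 0.11).

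Of 14 telomerase and shelterin genes 8 were lower and 2 higher at day 150 (29% and 29.8% of all genes were), with a median of −1.31, far from the −7.89 of TERT. WRAP53 (−2.51 ± 0.11), NOP10 (−2.11 ± 0.14), the shelterin subunit TERF1 (−2.08 ± 0.15) and RUVBL1 (−1.97 ± 0.09) fell most, and TERF2IP (3.33 ± 0.09) and POT1 (1.32 ± 0.21) rose. WRAP53 kept 4.87 FPKM and NOP10 27.2 FPKM in D150-ROs. Of 13 naive state genes only 5 could be tested, with KLF4 lower (−1.89 ± 0.23), TBX3 (5.35 ± 0.37) and ESRRB (1.62 ± 0.23) higher, and KLF5 not called (0.32 ± 0.28). TBX3 and ESRRB are also used outside pluripotency, and they reached 3.65 and 1.53 FPKM in D150-ROs. Of 13 close relatives of the members 5 could be tested, and 2 were lower (NANOGP8 at −8.46 ± 0.33 and DPPA2 at −7.62 ± 0.49), 1 higher (YY2, 2.95 ± 0.31) and 2 not called (YY1 at −0.33 and GDF1 at 0.58). Of 8 early germ layer markers 2 could be tested, with MIXL1 lower and EOMES higher.

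**Figure D5:**
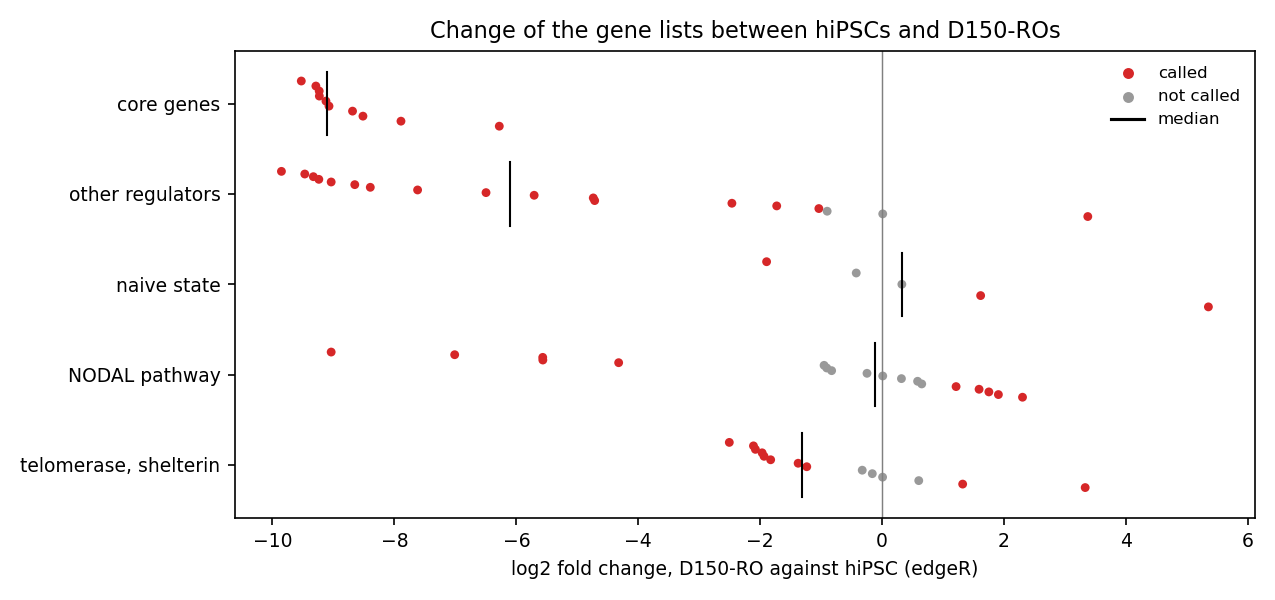
log2 fold change of D150-ROs against hiPSCs (edgeR) for each tested gene of 5 lists, 1 point per gene, red where called and grey where not, with the list median as a black bar. The core genes lie between −9.53 and −6.28, while the NODAL pathway list spreads on both sides of 0 and the telomerase and shelterin genes lie between −2.51 and 3.33.

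Neighbouring genes on the chromosome were also read. The nearest 2 genes on either side of each member were taken among the genes of the expression tables, some of them far away. Of these 39 genes 19 could be tested at day 150, and 12 were called lower and 1 higher (TM2D1, 469 kb from L1TD1), where 29% and 29.8% of all genes were. TRIML2, 86.2 kb from ZFP42, had a log2 fold change of −7.47 and a level of 12.9 FPKM in hiPSCs against 0.103 in D150-ROs. SLC2A3, a glucose transporter gene 120.1 kb from NANOG, went from 512 FPKM in hiPSCs to 20.6 in D150-ROs and was called lower. FAT1, 1269 kb from ZFP42, was not called, with a log2 fold change of 0.14.

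The genes most like the members were found by the share of the 5 group means of FPKM, summed, that lay in hiPSCs, among 8509 genes of at least 5 FPKM there. The median gene had 23.7% of its sum in hiPSCs, and 40 genes had at least 99%. FOXD3 ranked 5 with 99.6%, ZFP42 6, POU5F1 9, TDGF1 14, GDF3 19, NANOG 21, DPPA4 25 and L1TD1 31, while TERT ranked 45 with 98.7% and NODAL 80 with 96.7%. The 10 other genes with the highest share, over these 5 groups, were TAC3 and HES3 (100% each), FOXB1, TMEM125, SLC17A9, VRTN, EPHA1, NANOGP8, PRDM14 and FOXH1. As NANOGP8 is the near-identical copy of NANOG, its level and place here are uncertain between gene and copy.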

How the data were processed

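The authors aligned reads with HISAT2, assembled them with StringTie, quantified genes with RSEM and compared groups with DESeq2, whose versions, like the genome build, annotation and strand setting, are not given in the sources used here. The deposited tables hold RSEM expected counts (8.21% to 10.1% of values not whole) and FPKM per library, and the authors' own fold changes and p-values, which were not used. In 1 table, 6 iMGC columns named no passage and were left out. Fold changes came from edgeR 4.0.16 (R 4.3.3) quasi-likelihood tests with TMM factors on counts rounded to whole numbers, with Benjamini-Hochberg adjustment over all genes tested. Each comparison with hiPSCs was fitted on its 6 libraries, and the others as contrasts in 1 fit of all 15, which share 1 estimate of the spread. A gene was called at adjusted p under 0.05 and at least 2-fold. Alternatives were upper-quartile factors, DESeq2 1.42.0, limma 3.58.1 on log2(FPKM + 1) and log2(FPKM + 0.1), no filter, other libraries in the fit, a replicate block and each library left out. On simulated data with 200 changed genes, edgeR recovered 99% to 100% of them among 12666 to 13915 genes. The changed genes were drawn from well-counted genes only. The recovery therefore says nothing about counts as low as most of those of the members in ROs and iMGCs.

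Percents of the hiPSC level and ratios between groups are of pooled CPM with exact conditional 95% intervals, and a group at 0 counts was given 3 counts over the group. These percents, ratios and bounds carry no TMM factors, unlike the fold changes of the fits. The TMM factors of the joint fit ran from 0.791 in P5 iMGC replicate 2 to 1.31 in D150-RO replicate 3. Gene positions are from GENCODE 29 (GRCh38), matched by Ensembl ID. The promoters of 1 chromosome that holds no member were not searched. Coding sequences were taken as the longest open reading frame of each gene's transcripts. Named genes were all members, up to 4 genes per further list by size of the log2 fold change between D150-ROs and hiPSCs, every listed gene higher there, and the 10 genes with the highest hiPSC share. Results of some listed genes are not reported here. The members and lists were chosen with earlier results of these data known. Equally numbered libraries correlated from −0.07 to 0.34 in their deviations from the group means, and the numbers were not taken as pairs.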

Additional observations from a re-analysis of the deposited data

Results flagged for a closer look

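Levels of 8 members in P1 iMGCs stood apart from those in D150-ROs by the test of that difference. By CPM without TMM factors, which would make these bounds smaller, TDGF1 was at least 21.1-fold, DPPA4 at least 17.7-fold and L1TD1 at least 11.1-fold lower. NANOG was at least 6.23-fold, ZFP42 at least 5.89-fold and TERT at least 2.42-fold lower. POU5F1 was at a ratio of 0.0412 and NODAL at 0.0566. Between passages, DPPA4 was at least 17.04-fold and L1TD1 at least 6.35-fold higher in P5 than in P1 iMGCs, the latter on 2 of 3 P5 libraries. Groups of 3 libraries were too small for a test of single outlying libraries.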

How the results depend on the processing

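All 10 members kept their call against hiPSCs in each of the 4 comparisons under every alternative run. As said above, these calls were close to fixed in advance, so that they were kept says little. Over the single member fold changes that edgeR called, 624 values kept direction and call and 17 lost the call, with 0 that changed direction. Members not called in a comparison were left out of this count. P1 iMGCs against D150-ROs gave 1 called member in place of 8 with limma on log2(FPKM + 1), and 1 with 6 libraries in the fit, where only 1 member passed the filter. P5 against P1 iMGCs gave 0 called members with log2(FPKM + 1), 1 with log2(FPKM + 0.1) and 1 to 2 when 1 library was left out, and with 6 libraries in the fit no member could be tested. D150-ROs against D70-ROs gave 0 to 1 when 1 library was left out, the 1 being without D150-RO replicate 1. Adding the replicate block gave 10, 10, 10 and 10 members called against hiPSCs, 0 between RO ages, 8 for P1 iMGCs against D150-ROs and 2 between passages, and changed no call.

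Of all genes, log2(FPKM + 1) gave 2263 called higher in P5 iMGCs against hiPSCs (3420 by edgeR), 1308 called lower in D150-ROs against D70-ROs (2323), 1340 called higher in P1 iMGCs against D150-ROs (2799), and 152 called between passages, 96 higher and 56 lower (514, 304 and 210). With log2(FPKM + 0.1), P1 iMGCs against D150-ROs had 1603 higher and 5447 lower (3441 by edgeR). With 6 libraries in the fit, 332 genes were called between passages, 111 of them lower. Upper-quartile scaling moved the median of all genes by −0.12 (P1 iMGCs against hiPSCs), −0.13 (P5 iMGCs against hiPSCs), −0.11 (D150-ROs against D70-ROs) and −0.10 (P1 iMGCs against D150-ROs). In D70-ROs, the level of NANOG was 0.278% of hiPSCs by FPKM and 0.169% by CPM, and that of NODAL 1.64% and 1.41%. The cause of these shifts was not tested. Depth limits GDF3 and FOXD3 most, whose hiPSC counts were the lowest of the set.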
